A study of Danio rerio with 11 samples.

Results

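The middle tail of zebrafish embryos at the 21-somite stage was compared between spt embryos, which carry the b104 allele of the T-box gene tbx16 on both chromosomes, and wild-type embryos with no b104 allele. The comparison used every array labelled as tail at that stage, 6 of the 11 arrays of the series, with 3 spt arrays (labelled 4, 5 and 6) and 3 wild-type arrays (labelled 1, 2 and 3). Both genotypes came from a cross to a line in which the pax2a promoter drives GFP, and tail embryos were not chosen for GFP. Each RNA sample was a pool of many embryos, and extractions came from separate clutches. Somites and presomitic mesoderm behind the yolk extension were collected with the end of the tail cut away. Notochord, spinal cord and intermediate mesoderm lay in the same piece of tissue. What was cut away differed between genotypes, with the hindmost tip removed in wild type and an abnormal ball of cells there removed in spt. What this difference did to the signals was not tested. The other 5 arrays, with 3 spt and 2 wild-type samples, hold amplified RNA of sorted cells from intermediate mesoderm, taken at 4 to 5 somites. Those cells came from GFP-positive embryos and were sorted for the pax2a-driven GFP. These arrays serve here only as a second tissue for comparison.

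T-box transcription factors bind DNA through a shared domain and direct the formation of mesoderm. In zebrafish, tbx16 is active in the tailbud and presomitic mesoderm, where it helps progenitor cells move out and become paraxial mesoderm, the source of somites and body muscle. Embryos without it are known for missing trunk somites and for a lack of primitive red blood cells, while somites do form in the tail.

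Signals are the deposited linear Affymetrix values after quantile normalization of the 6 tail arrays, and a log2 fold change is spt minus wild type on log2(signal + 16), fitted with limma. Of 15502 probe sets, 107 passed an adjusted p of 0.05 (0.69%), of which 28 (0.181%) were higher and 79 (0.51%) were lower in spt. The groups of arrays did not overlap for any of the 107, and each differed at least 1.5-fold. At an unadjusted p under 0.05 there were 1154 probe sets. A looser rule for candidates, which adds to that p a log2 fold change of 0.32 or more in size, took 573 higher (3.7%) and 532 lower (3.43%) ones, and 502 (3.91%) and 470 (3.66%) of the 12846 with a signal of 100 on most tail arrays. Of all probe sets, 6.01% had every spt array above every wild-type array and 6.2% had every spt array below. Arrays of the genotypes deviated from their means together in the order of their numbers, spt 4 with wild type 1, 5 with 2 and 6 with 3. With these pairs as a block, a fit chosen after this was seen, limma called 290 probe sets higher (1.87%) and 285 lower (1.84%) in spt, all 107 among them. The labels do not give the pairs, so calls below are those without pairing unless a paired fit is named, and paired values stand beside them where they differ. A signal of 100 or more was found for 82.2% to 84.1% of probe sets on spt arrays and 80.8% to 84.8% on wild-type arrays. In whole tissue, fewer cells of a type and less RNA per cell cannot be told apart, and this holds for every gene below. For counts over gene lists, each gene is taken by the probe set with its highest mean signal; over the 8793 genes so measured, 0.239% were called higher and 0.648% lower (2.26% and 2.08% in the paired fit), and the median log2 fold change was 0.0046.

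**Figure D1:**
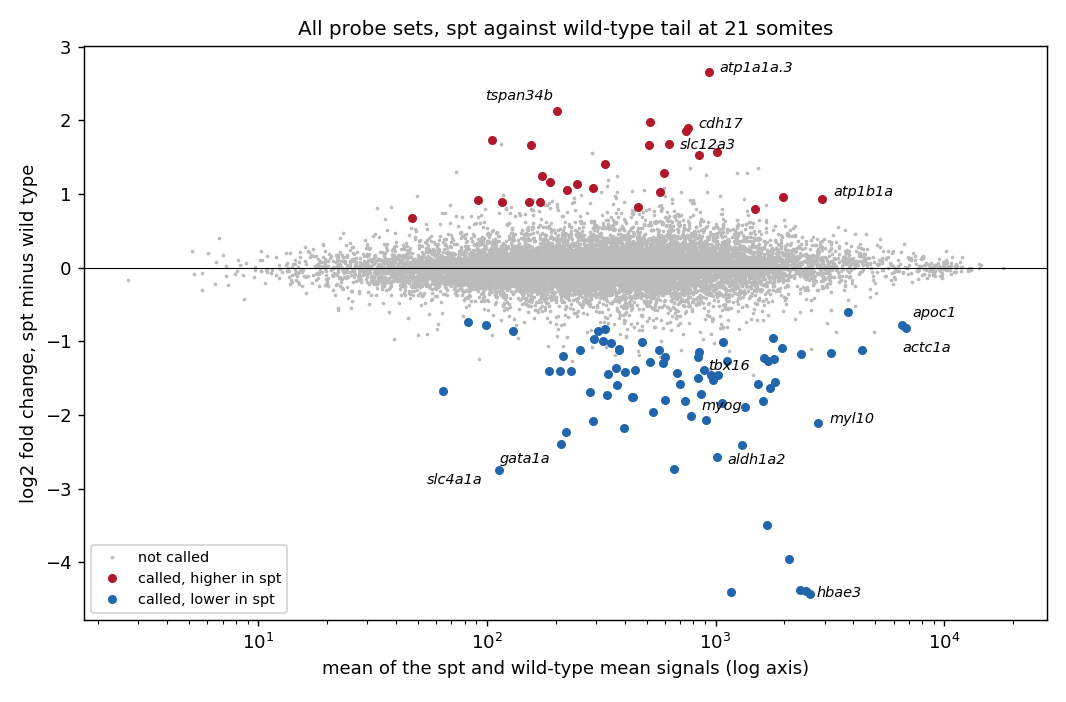
Each of the 15502 probe sets is drawn at the mean of its spt and wild-type mean signals (log axis) and its log2 fold change, spt minus wild type. Red points are the 28 probe sets called higher and blue points the 79 called lower at an adjusted p of 0.05, and the embryonic globin probe sets such as hbae3 lie lowest.

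The mutated gene itself had less transcript in spt. The signal of tbx16 was 424, 409 and 445 on spt arrays, against 1485, 958 and 1296 on wild-type arrays. All spt arrays lay close together and below the lowest wild-type array. The mean was 426 ± 17.8 in spt and 1246 ± 267 in wild type (SD, n = 3 each), which gave -1.49 on the log2 scale (standard error 0.18, adjusted p = 0.0065), and a second probe set of the same gene gave -0.75 without passing the test (adjusted p = 0.11). Signals of tbx16 in spt stayed above 100 on every array, and no array went against its genotype label.

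Genes of early paraxial mesoderm formed one of the groups that fell most. Of 16 listed genes on the array, 6 fell, tbx16 itself among them, and none rose. The median log2 fold change of the list was -0.85, and the paired fit called 11 lower and 1 higher. Arrays did not overlap for 11 genes that were lower in spt, against 7.11% of all named genes. The largest difference was in aldh1a2, the enzyme that makes retinoic acid in somites, with signals of 314, 318 and 213 on spt arrays and 1688, 2113 and 1447 on wild-type arrays. Every spt array was far below every wild-type array, and the means of 282 ± 59.1 and 1749 ± 337 gave a log2 fold change of -2.57 (standard error 0.21, adjusted p = 7.92e-04). The bHLH gene tcf15, also called paraxis, which is needed for epithelial somites, read 495, 474 and 528 in spt and 1102, 1661 and 1482 in wild type. Its spt arrays hardly varied, and its log2 fold change was -1.46 (adjusted p = 0.00641). The T-box gene tbx16l, a close relative of tbx16, averaged 710 ± 84.8 in spt and 1448 ± 263 in wild type (-1.002, adjusted p = 0.045). The segmentation genes mespba and mespaa, which act where the next somite border forms, had mean signals of 232 ± 21.4 and 210 ± 10.2 in spt, against 526 ± 74.5 and 435 ± 43.0 in wild type.

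Other genes of the presomitic mesoderm had lower means in spt but passed only in the paired fit. For msgn1, a bHLH factor that drives progenitors toward paraxial fate, signals were 2650, 2113 and 2329 in spt and 5415, 4200 and 3519 in wild type (log2 fold change -0.87, adjusted p = 0.0574, paired 0.00113). The arrays of msgn1 did not overlap, whereas tbx6, which sets the somite border, had its highest spt array (1808) just under its lowest wild-type array (1818), and wild-type array 1 reached 3471 (log2 fold change -0.69, adjusted p = 0.383, paired 0.0141). The protocadherin pcdh8, a cell adhesion protein of the presomitic mesoderm, had -0.80 (adjusted p = 0.259, paired 0.00595), and pcdh10b had -1.07 (adjusted p = 0.243, paired 0.00131). The ephrin efnb2b (-0.21, adjusted p = 0.932) and the prolyl hydroxylase egln3 (0.29, adjusted p = 0.739) passed in neither fit.

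Among 24 genes of the segmentation clock and Notch signaling, only her1 was called without pairing, as lower in spt. This gene encodes a transcriptional repressor whose level cycles as somites are made. It read 325, 405 and 335 in spt and 902, 974 and 681 in wild type, with no overlap (-1.22, adjusted p = 0.0192). The paired fit called 4 genes lower and 1 higher. The genes her7 (-0.92, adjusted p = 0.0727, paired 0.00474) and dlc (-0.97, adjusted p = 0.0975, paired 0.00474) passed only in that fit. The list as a whole had 14 positive and 10 negative values and a median of 0.02. Of 27 genes for somite borders and matrix, 2 were lower, and 4 lower and 3 higher in the paired fit. Here fn1b, a fibronectin, had means of 1454 ± 329 in spt and 3254 ± 377 in wild type (-1.17, adjusted p = 0.018), and has2, which makes hyaluronan, had 214 ± 8.46 and 400.5 ± 24.7 (-0.85, adjusted p = 0.0314). When 1 array was left out at a time, tbx16, aldh1a2 and tcf15 passed in all 6 fits. The call of her1 held only without wild-type array 3 and was lost without each of the others (adjusted p = 0.0539 to 0.105), and the same pattern held for mespaa (0.0539 to 0.162), tbx16l (0.103 to 0.217) and has2 (0.0974 to 0.237). For mespba the call was lost without spt array 5 (0.1001) or 6 (0.112), and for fn1b without spt array 5 (0.076) or wild-type array 2 (0.101) or 3 (0.0728).

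Part of the muscle regulators also fell. Of 21 genes, 5 were lower in spt and none rose, with a list median of -0.28 and 8 lower in the paired fit. The bHLH factor myog, which drives myoblasts to differentiate, read 364, 320 and 222 on spt arrays and 1111, 1159 and 1490 on wild-type arrays. The groups were well apart, and the log2 fold change was -2.01 (standard error 0.21, adjusted p = 0.00334). The related factor myod1, which commits cells to muscle, had 328, 325 and 281 in spt and 675, 715 and 545 in wild type (-1.01, adjusted p = 0.0311). Its partner myf5 had 1333, 1128 and 1201 in spt, below the wild-type values of 2276, 1794 and 1941, yet passed only in the paired fit (-0.70, adjusted p = 0.0726, paired 0.00386). The somite gene dmrt2a, which keeps left and right somites in step in zebrafish, had -1.43 (adjusted p = 0.0166), and the MADS-box factors mef2d and mef2ca, which switch on contractile genes, had -1.14 (adjusted p = 0.0129) and -0.83 (adjusted p = 0.0431).

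Contractile protein genes were among the called genes too. In the fast muscle list 8 of 22 genes fell, 20 had negative values and the median was -0.49, and in the slow muscle list 4 of 11 fell, with a median of -0.44 (9 and 6 in the paired fit). The fast troponin C gene tnnc2.2 read 430, 358 and 251 in spt and 1368, 1680 and 1376 in wild type (-2.06, adjusted p = 0.00307). Spt array 6 was the lowest and spt array 4 the highest of the mutant arrays, and the same order held for neb and tpma. The thick filament protein mybphb had means of 554 ± 54.9 in spt and 2134 ± 514 in wild type (-1.89), nebulin (neb), the ruler of the thin filament, had 151 ± 47.2 and 520 ± 26.2 (-1.73), and tropomyosin tpma had 484 ± 70.5 and 1291 ± 118 (-1.39). In slow muscle, myl10, a myosin regulatory light chain, had 1041, 1309 and 771 in spt and 3116, 4647 and 6023 in wild type (-2.11, adjusted p = 0.00641), and the slow myosin heavy chain smyhc1 had means of 726 ± 280 and 2499 ± 631 (-1.81, adjusted p = 0.035). The troponin T gene tnnt2c had 135, 171 and 82.9 in spt and 471, 495 and 1031 in wild type (-2.18, adjusted p = 0.0199), with wild-type array 3 far above the others. The fast troponin I gene tnni2b.1 had means of 469 ± 153 and 1669 ± 309 (-1.84), and the skeletal actin acta1a had 2797 ± 771 and 5950 ± 772 (-1.11). Not every contractile gene was called. The fast myosin light chain mylpfa had 356 ± 137 in spt and 349 ± 226 in wild type. Its arrays varied widely, so its log2 fold change of 0.12 has a standard error of 0.43. The fast troponin T gene tnnt3a had 185 ± 12.6 and 219 ± 22.3.

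Muscle chaperones and genes of excitation and calcium handling had 5 lower of 32 (7 in the paired fit) and none higher, with a median of -0.22. Of these, unc45b, a chaperone that folds myosin, read 991, 1136 and 837 in spt and 2450, 2580 and 2156 in wild type (-1.27, adjusted p = 0.00527). Its partner hsp90aa1.1, the muscle-enriched form of Hsp90, read 2211, 2034 and 1662 in spt and 4326, 4173 and 4702 in wild type (-1.16, standard error 0.12, adjusted p = 0.0035). The genotypes did not overlap on these probe sets of either gene. A dimmer probe set annotated with both hsp90aa1.1 and hsp90aa1.2 did overlap and was not called. It read 509, 957 and 676 in spt and 896, 3213 and 2475 in wild type (-1.46, adjusted p = 0.304). The calcineurin regulator rcan3 (-1.41, adjusted p = 0.00834), the acetylcholine receptor subunit chrna1 (-1.40, adjusted p = 0.0035) and the calcium channel subunit cacng1a (-1.40, adjusted p = 0.00301) fell by similar amounts. Outside the lists, klhl41b, which maintains the sarcomere (-1.76, adjusted p = 0.00109), the actin-binding Xin protein gene xirp1 (-1.59, adjusted p = 0.0052) and the Z-disc protein nexn (-1.95, adjusted p = 0.037) were among the largest falls. So was the muscle aldolase aldoab (-1.80, adjusted p = 0.00336), the only 1 of 30 glycolysis genes called without pairing. The glycolysis list had 22 positive values and a median of 0.11. Its members ldha (0.78, paired adjusted p = 0.0173), gapdhs (0.77, paired 0.00737) and gpia (0.60, paired 0.0221) were called higher in the paired fit. Of the genes the study had also examined by in situ hybridization at this stage, bmp3, a ligand of the BMP family, read 700, 495 and 508 in spt and 1026, 1011 and 838 in wild type (-0.75, adjusted p = 0.169, paired 0.0122), and fgfrl1a, an FGF receptor without a kinase domain, had -0.81 (adjusted p = 0.0623, paired 0.00678). Neither passed without pairing, although the arrays of both did not overlap. Both met the looser rule for candidates, with unadjusted p = 0.0025 and 4.94e-04 from limma. By in situ hybridization, the study saw less expression of both in the tail mesoderm of spt embryos.

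In the fits that left out 1 array, myog, tnnc2.2, mybphb, tpma, unc45b, hsp90aa1.1, rcan3, chrna1, cacng1a, klhl41b, xirp1 and aldoab passed every time. The fast muscle count was 3 without wild-type array 2, 4 without wild-type array 3 and 5 without spt array 5 or 6, and the slow muscle count was 0 without wild-type array 2, 2 without wild-type array 3 or spt array 6 and 3 without spt array 4 or 5. The 5 calls among muscle regulators fell to 1 without spt array 5 or 6, 2 without wild-type array 2 and 3 without any other array. Single calls were lost for nexn (adjusted p = 0.105 without spt array 5, 0.074, 0.168 and 0.107 without wild-type arrays 1, 2 and 3), neb (0.0543 without wild-type array 2), myl10 (0.0574 without wild-type array 2), smyhc1 (0.163 and 0.134 without wild-type arrays 2 and 3), tnni2b.1 (0.0993 and 0.0838 without the same arrays) and tnnt2c (0.0645 without spt array 6, 0.0769 without wild-type array 2). The call of acta1a held only without spt array 4 (otherwise 0.0541 to 0.149). For dmrt2a the adjusted p was 0.0811 and 0.0558 without spt arrays 5 and 6 and 0.0543 and 0.069 without wild-type arrays 2 and 3, and for mef2d 0.0633 and 0.0669 without spt arrays 5 and 6. Every fit without 1 array lost mef2ca (0.088 to 0.315), and all but that without wild-type array 3 lost myod1 (0.085 to 0.192).

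The largest differences of all were in red blood cell genes. Of 5 globin genes with a probe set of their own, 3 fell. The embryonic alpha globin hbae3 read 188, 215 and 220 on spt arrays and 3579, 5002 and 5675 on wild-type arrays, and the embryonic beta globin hbbe3 read 196, 202 and 191 against 3172, 4914 and 5361. Spt signals were steady near 200 while wild-type array 1 was the lowest of its genotype for both, and the mean was 22.9-fold and 22.8-fold lower in spt (log2 fold changes -4.39 and -4.37, adjusted p = 2.14e-05 and 2.85e-05). A further 3 probe sets that are annotated with several embryonic globins each had log2 fold changes of -4.43, -4.40 and -3.95, and a second probe set of hbae3 had -3.49. A weaker beta globin, hbbe2, had means of 290 ± 22.0 in spt and 746 ± 232 in wild type (-1.27, adjusted p = 0.0446).

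Many genes that build the red cell around globin were lower too. All 12 genes of heme synthesis and iron handling had negative values, 10 of them without overlap between arrays, against 7.11% of all named genes. Of the 12, 3 passed, against 0.648% of all named genes called lower. They were urod (-1.75, adjusted p = 0.0185), cpox (-1.45, adjusted p = 0.00641) and alas2 (-1.20, adjusted p = 0.017), of which alas2 catalyzes the first step of heme synthesis in erythroid cells. The mitochondrial iron importer slc25a37 passed only in the paired fit (-0.56, adjusted p = 0.259, paired 0.0295). For cpox the spt signals were 539, 527 and 534, and the wild-type signals were 1172, 1573 and 1794. Among 10 genes of the erythroid membrane and enzymes, 4 fell: the anion exchanger slc4a1a (-2.74, adjusted p = 0.00307), the carbonic anhydrase cahz (-2.23, adjusted p = 1.87e-04), beta-spectrin sptb (-1.40, adjusted p = 0.0052) and the membrane skeleton protein epb41b (-1.12, adjusted p = 0.0124). This list had 7 negative and 3 positive values and a median of -0.27. Its summed signals overlapped, at 2676 to 3188 on spt arrays and 3105 to 3772 on wild-type arrays. The paired fit called its member ca2 higher (0.57, paired adjusted p = 0.0318). The signals of slc4a1a were 11.7, 18.4 and 17.4 in spt, under the level of 100, and 229, 287 and 113 in wild type. The signals of cahz were 64.9, 66.0 and 72.0 in spt and 348, 346 and 439 in wild type, so that its spt arrays were all under 100 as well.

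Of 18 blood transcription factors, 3 fell. The main erythroid regulator gata1a read 49.7, 60.3 and 57.8 in spt and 305, 412 and 380 in wild type (-2.40, standard error 0.16, adjusted p = 1.87e-04). The zinc finger gene drl, a marker of early blood and lateral mesoderm, read 344, 277 and 319 in spt and 876, 1108 and 1481 in wild type (-1.80, adjusted p = 0.00508). The Krüppel-like factor klf17, which zebrafish primitive erythroid cells express, had means of 174 ± 30.4 and 504 ± 130 (-1.44, adjusted p = 0.0175). No spt array of these 3 genes reached the lowest wild-type array. Of the other 15 factors, none passed without pairing, the paired fit called 5 of the 18 lower, and the list median was -0.20. None of 16 myeloid genes passed, with mpx, a granulocyte peroxidase, at 295 ± 18.1 in spt and 299 ± 41.6 in wild type and a list median of -0.03. Left out 1 at a time, no array was needed for the calls of hbae3, hbbe3, slc4a1a, cahz, sptb, cpox, gata1a or drl. The call of hbbe2 held only without wild-type array 1 (otherwise 0.0728 to 0.199), and urod was lost without spt array 4, 5 or 6 (0.0558, 0.0828 and 0.0603). Without spt arrays 5 and 6 the adjusted p was 0.116 and 0.0967 for alas2 and 0.1001 and 0.086 for epb41b, without wild-type arrays 2 and 3 it was 0.0955 and 0.066 for alas2, and without spt array 5 or wild-type array 2 it was 0.0986 and 0.0676 for klf17.

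**Figure D2:**
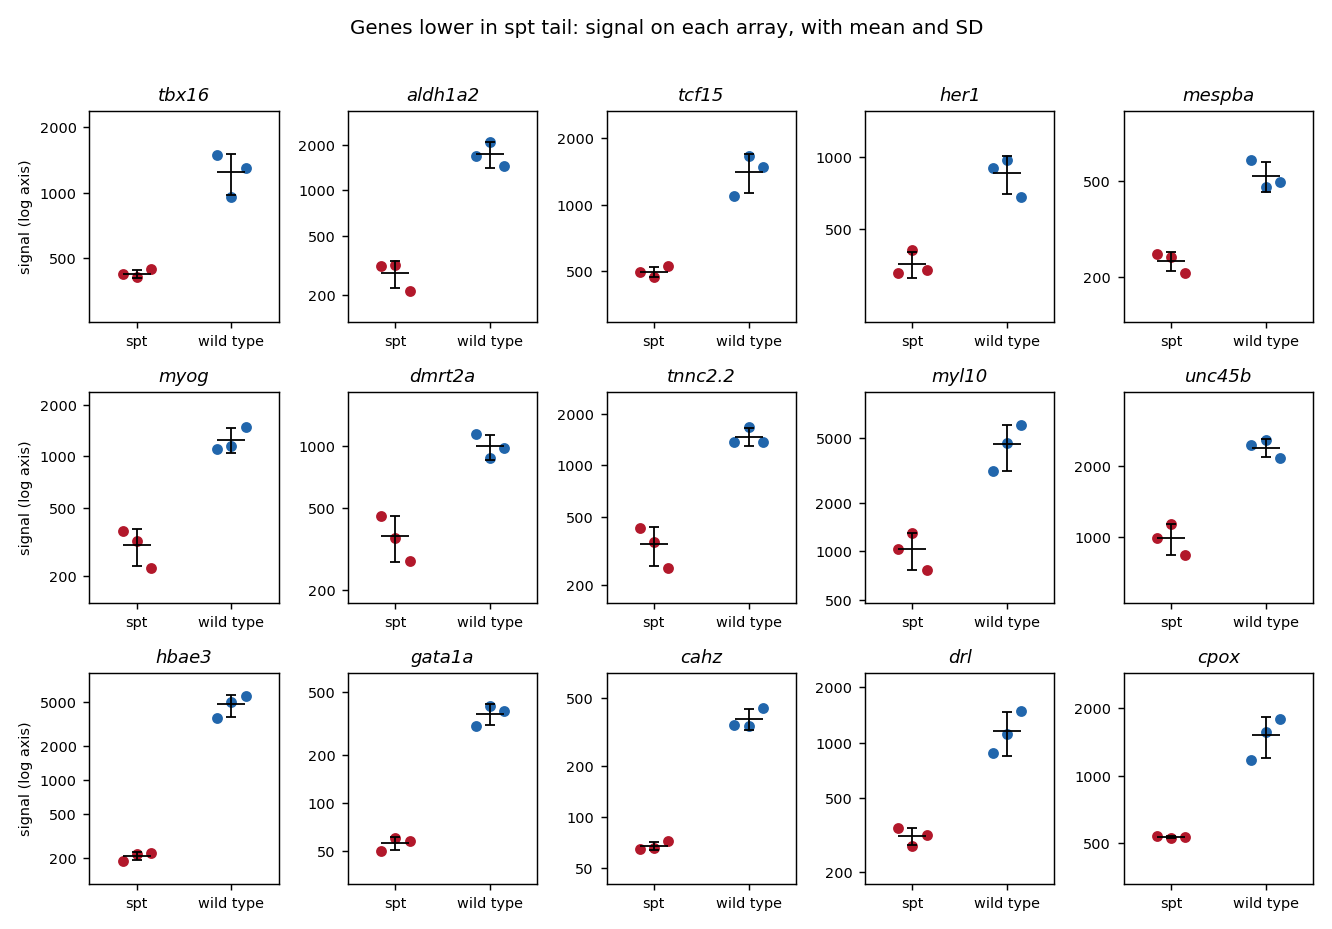
Signal (log axis, a separate scale for each gene) of 15 genes on each spt array (red, replicates 4, 5 and 6 from left to right) and each wild-type array (blue, replicates 1, 2 and 3), with a bar for the mean and whiskers for the SD (n = 3). The genotypes do not overlap for any of them, and the gap is widest for hbae3, at 208 against 4752 on average.

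The genes that rose most were led by those of the pronephros. The pronephros is the embryonic kidney, which forms from intermediate mesoderm. The paper cites earlier work in which some spt mutants lacked a pronephric kidney and an anus. Of 19 listed genes, 4 were called higher (21.1%, against 0.239% of all named genes) and none lower, with a list median of 0.23 and 8 higher in the paired fit. The 15 genes that were not called summed to 4387 to 4976 on spt arrays and 3428 to 4373 on wild-type arrays, so that the list's summed signal, at 11340 to 12940 on spt arrays and 6057 to 7353 on wild-type arrays, differed mainly through the 4 called genes. The sodium pump subunit atp1a1a.3 read 1767, 1515 and 1578 in spt and 215, 240 and 277 in wild type. The arrays of each genotype lay close together and far from the other genotype, and the mean was 6.63-fold higher in spt (2.66 on the log2 scale, standard error 0.16, adjusted p = 1.41e-04). The cadherin cdh17, an adhesion protein of the kidney ducts, read 1183, 1093 and 1314 in spt and 239, 340 and 358 in wild type (1.90, adjusted p = 0.00298). The sodium-chloride cotransporter slc12a3, a marker of the distal tubule, read 1130, 815 and 942 in spt and 259, 258 and 348 in wild type (1.69, adjusted p = 0.00411), while a dimmer probe set of slc12a3 gave 0.38 (adjusted p = 0.94). The pump subunit atp1b1a had means of 3854 ± 303 and 2013 ± 106 (0.93, adjusted p = 0.00411), with 0.96 on its other probe set. These 4 calls were made in all 6 fits with 1 array left out. Transcription factors that specify the kidney did not pass without pairing, with pax2a at 180 ± 42.0 in spt and 120 ± 24.6 in wild type (0.52, adjusted p = 0.581, paired 0.0307) and pax8 at 210 ± 7.69 and 210 ± 59.6 (0.03, adjusted p = 1). A dimmer probe set of pax2a went the other way, with means of 126 in spt and 142 in wild type (-0.16), and was not called.

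Most of the other genes that rose belong to no single list. They include tspan34b, a tetraspanin membrane protein, with 348, 338 and 333 in spt and 56.6, 70.9 and 69.2 in wild type (2.13, adjusted p = 1.87e-04). Next came ponzr1, which takes part in kidney development in zebrafish, with 696, 744 and 1063 in spt and 152, 231 and 214 in wild type (1.98, adjusted p = 0.00402, but 0.40 and adjusted p = 0.81 on a second probe set, with means of 521 in spt and 392 in wild type). The genes zgc:101772 (1.86), prr15la (1.73) and ndrg1a (1.67), a gene of stress and differentiation responses, differed by a similar size. The tight junction claudins cldn3c (1.57, adjusted p = 0.0174) and cldn3d (1.53, adjusted p = 0.018) seal the space between epithelial cells. The otolith matrix gene oc90 (1.29), the actin-capping gene capgb (1.17), the finTRIM gene ftr82 (1.08), the pump subunit atp1b1b (1.05), the endocytic adaptor dab2 (1.03), the cortisol-inactivating enzyme hsd11b2 (0.91), tpd52l1 (0.89) and tnfaip8l3 (0.89) completed the 20 largest rises among called genes, each taken by its brightest probe set, with a signal of 100 on every array of a genotype, together with the endothelial gene mrc1a. Without 1 array, tspan34b, ponzr1, zgc:101772, prr15la and ndrg1a kept their calls. The others lost theirs in at least 1 fit, most often without spt array 5, where the adjusted p was 0.076 for atp1b1b and cldn3d, 0.0592 for cldn3c, 0.0828 for capgb, 0.144 for dab2, 0.0605 for ftr82, 0.199 for hsd11b2, 0.181 for tpd52l1 and 0.171 for tnfaip8l3. The calls of tpd52l1 and tnfaip8l3 held only without wild-type array 1, that of hsd11b2 only without spt array 4, that of ftr82 only without wild-type array 3 and that of dab2 only without wild-type array 1 or 3. Calls were also lost for cldn3c without spt array 6 (0.0832) or wild-type array 2 (0.0956), for cldn3d without spt array 6 (0.086) or wild-type array 3 (0.0646) and for capgb without wild-type array 2 (0.0729). For oc90 it was 0.0609 without spt array 6 and 0.0543 without wild-type array 2.

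**Figure D3:**
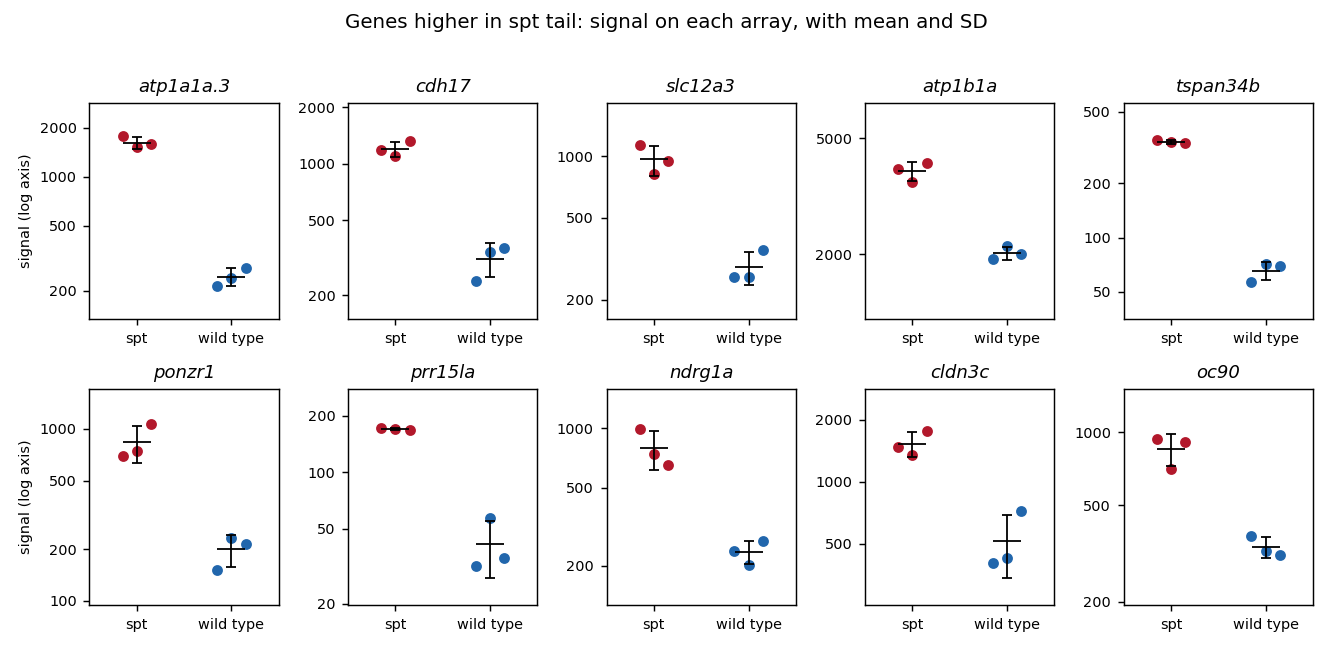
Signal (log axis, a separate scale for each gene) of 10 genes that were higher in spt, on each spt array (red, replicates 4, 5 and 6 from left to right) and each wild-type array (blue, replicates 1, 2 and 3), with the mean and SD (n = 3). Spt arrays of atp1a1a.3 lie between 1515 and 1767 and its wild-type arrays between 215 and 277.

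Lists of other tail tissues had medians like that of the pronephros list but fewer calls without pairing, and no test compared the lists. Endothelial genes had 2 called higher of 20 (4 higher and 2 lower in the paired fit), a median of 0.24 and 15 positive values. The mannose receptor mrc1a, found on veins and lymphatics, had means of 253 ± 73.7 in spt and 95.8 ± 19.2 in wild type (1.248, adjusted p = 0.0444), and the aquaporin aqp8a.1 had 1903 ± 251 and 1078 ± 21.6 (0.80, adjusted p = 0.0407). The call of aqp8a.1 was lost whichever array was left out (0.0572 to 0.289), and that of mrc1a held only without wild-type array 1 (otherwise 0.0541 to 0.155). The VEGF receptor kdrl read 653, 585 and 494 in spt and 437, 325 and 276 in wild type (0.73, adjusted p = 0.252, paired 0.0109). In the spinal cord list 39 of 48 genes had positive values and 17 were higher without overlap (background 7.02%), but none passed without pairing against 12 higher in the paired fit, and the median was 0.25. Its smallest p belonged to sox3, a factor of neural progenitors, at 4069 ± 168 in spt and 2783 ± 280 in wild type (0.55, adjusted p = 0.0618, paired 0.00418), and the glial filament gene gfap had 1.05 (adjusted p = 0.117, paired 0.017). The notochord list had 27 of 29 positive values, a median of 0.25 and no call, against 4 higher in the paired fit, with tbxta at 0.18 and the signal shha at 0.55 (paired adjusted p = 0.0258). Epidermal genes had 1 call of 30, atp1b1b, and a median of 0.29, and 8 were higher in the paired fit. Their summed signals were 41180, 59430 and 48680 on spt arrays and 32250, 46970 and 40870 on wild-type arrays, which overlap as groups but are higher in spt within each pair. The same held for the surface keratin krt4, with 5643, 10040 and 7605 in spt and 4941, 8901 and 6530 in wild type, although krt4 itself passed in neither fit. Neural crest genes had no call of 15 in either fit and a median of 0.03. Summed signals of the spinal cord list were 33650 to 36400 on spt arrays and 25090 to 28480 on wild-type arrays. The signals are relative to the other genes of each array, and the part that a changed share of tissues plays in any of these differences was not tested.

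Genes that assemble ribosomes in the nucleolus had slightly lower signals in spt. Of 88 genes, 85 had negative values and 48 were lower without overlap (background 7.11%), while none passed with limma without pairing and 13 were lower in the paired fit. The list median was -0.35, and over all leave-one-out fits and other settings it lay between -0.37 and -0.32. Summed signals were 86630 to 90920 on spt arrays and 109700 to 111400 on wild-type arrays, with no overlap. The growth regulator myca, a Myc transcription factor, read 164, 128 and 115 in spt and 327, 252 and 235 in wild type (-0.92, adjusted p = 0.0755, paired 0.00167), and mrto4, a factor for the large ribosomal subunit, read 1240, 1158 and 1057 in spt and 1779, 1628 and 1904 in wild type (-0.61, adjusted p = 0.105, paired 0.016). The 73 ribosomal protein genes themselves had a median of -0.01, with 1 gene lower and 1 higher without overlap.

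Signaling pathways had few genes past the test, with 0 to 2 per direction and list in the paired fit too. The retinoic acid list had 1 call of 24, aldh1a2 (2 lower in the paired fit), and a median of -0.03. None of 53 Wnt genes passed (median 0.02), and the smallest p-values were those of the ligand wnt11, at 0.53 (adjusted p = 0.219, paired 0.0251), and of ctnnb1, a beta-catenin, at 0.28 (adjusted p = 0.287). None of 44 FGF and MAP kinase genes passed (median 0.01). Here the ligand fgf10a read 534, 586 and 530 in spt and 327, 340 and 278 in wild type (0.78, adjusted p = 0.0712, paired 0.00678), on the opposite side of 0 from fgfrl1a. None of 47 BMP, Nodal and TGF-beta genes passed (median 0.07), and the receptor bmpr1ba, at -1.19 (adjusted p = 0.0623, paired 0.00108), was nearest. The 42 Hox genes had a median of 0.09 and no call, and their members with the smallest p were the posterior genes hoxc13a (0.57, adjusted p = 0.423) and hoxd13a (0.73, adjusted p = 0.457, paired 0.0272). Tailbud genes had no call of 36 (median 0.04), and 1 higher in the paired fit.

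**Figure D4:**
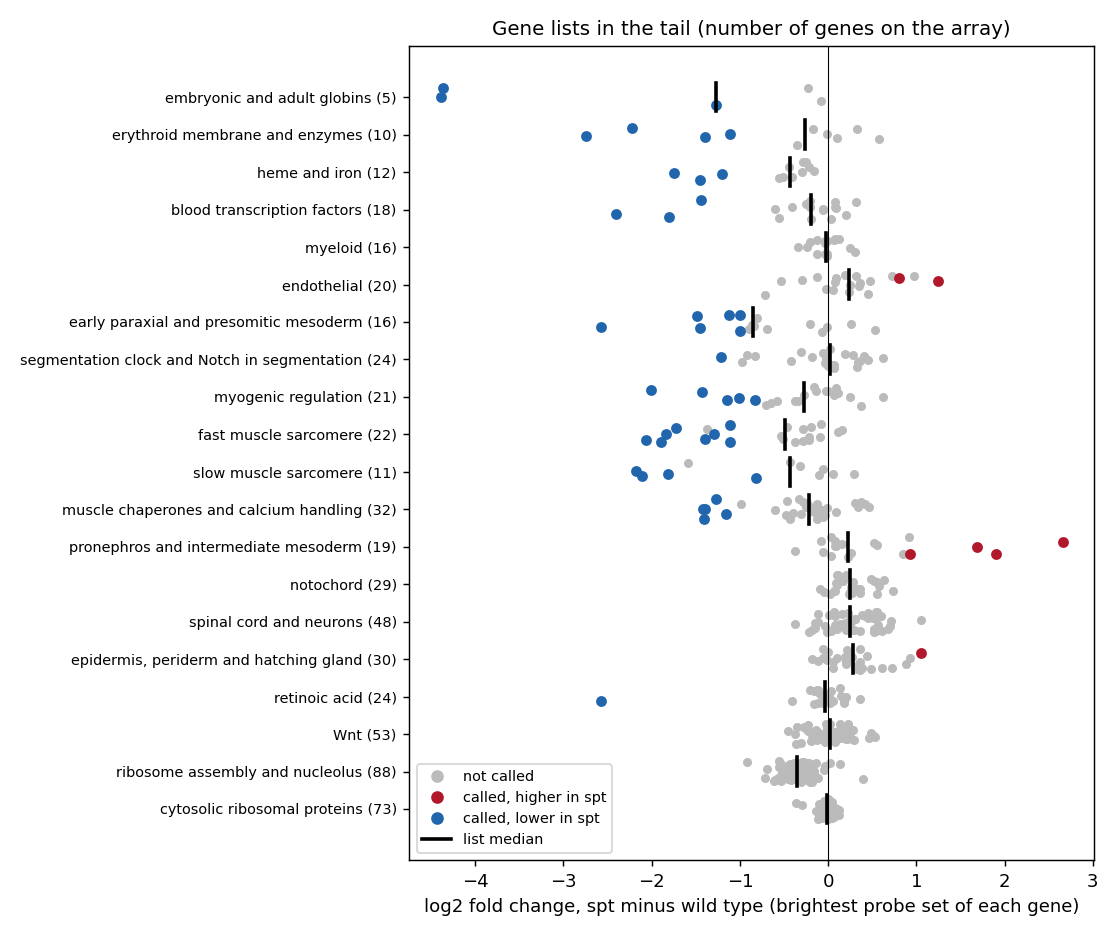
Log2 fold change, spt minus wild type, of the genes in 20 lists (brightest probe set of each gene, number of genes in brackets). Red and blue points passed an adjusted p of 0.05 as higher or lower in spt, and black bars mark list medians, which run from -1.27 for the globins to 0.29 for the epidermis list.

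The tail was set against intermediate mesoderm, where the same contrast was measured on 3 spt and 2 wild-type arrays. The difference between the spt effects passed an adjusted p of 0.05 for 75 probe sets (0.484%), and 24 of the 107 probe sets called in the tail were among them. For 2 red cell genes the effect was larger in intermediate mesoderm, as measured against the wild-type arrays that the study kept. The study had left out another wild-type array of this tissue, which did not cluster with the others and had far lower red cell markers such as gata1. What the effects would be with that array was not tested. The log2 fold change of gata1a was -2.40 in tail and -4.04 (standard error 0.22) in intermediate mesoderm (difference 1.64, adjusted p = 0.0446), and that of cpox was -1.45 and -3.90 (difference 2.44, adjusted p = 0.0269). For the red cell genes slc4a1a and cahz the fall was larger in tail. They had -2.74 and -2.23 in tail and 0.48 and -0.25 in intermediate mesoderm (differences -3.22 and -1.98, adjusted p = 0.0219 and 0.00319). Their wild-type signals in intermediate mesoderm were low, at 101.7 and 80.05 for slc4a1a and 93.14 and 113.1 for cahz. Those of gata1a were 2496 and 2922. For muscle genes such as myog (0.10), neb (0.25) and aldoab (0.03) and for the pronephros genes atp1a1a.3 (0.08) and slc12a3 (0.00) the effect in intermediate mesoderm was near 0, and no signal of these 5 genes exceeded 130.3 there. The other called pronephros genes differed from them, with atp1b1a at 0.90 (standard error 0.26) in intermediate mesoderm, close to its 0.93 in tail, and cdh17 at -0.51 with a standard error of 1.04. Globin probe sets did not run alike. The brightest of hbae3 had -4.39 in tail and -5.37 in intermediate mesoderm (difference 0.98, adjusted p = 0.37), and its second probe set had -3.49 and -1.44 (difference -2.05, adjusted p = 0.0584). Of the probe sets annotated with several embryonic globins, the 1 with -4.40 in tail had 0.69 in intermediate mesoderm (difference -5.085, adjusted p = 0.00164). Tissue, stage, cell sorting and amplification change together between the sets, and their parts cannot be told apart.

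**Figure D5:**
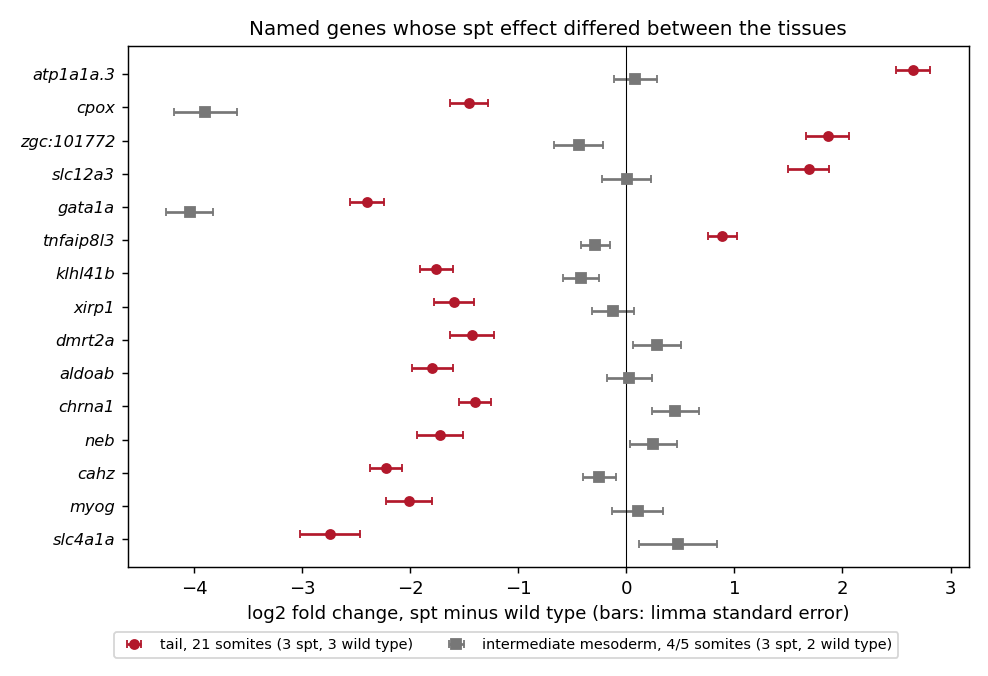
Log2 fold change, spt minus wild type, of the 15 named genes whose spt effect differed at an adjusted p of 0.05, in the tail (red circles) and in intermediate mesoderm (grey squares), with limma standard errors as bars. Genes run from the most positive difference, atp1a1a.3, at the top to the most negative, slc4a1a, at the bottom.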

How the data were processed

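Arrays were Affymetrix Zebrafish Genome Arrays hybridized with biotin-labelled cRNA, unamplified for the tail. Image quantification was done by the authors in Microarray Suite (MAS5) 5.0, and the deposited values are linear intensity values, 1 per probe set and array, already scaled by the authors. An invariant set normalization is described for selecting candidates, but which scaling the deposited values carry is not given in the sources used here. Arrays have no read depth, and 3 arrays per genotype limit the precision. An exact permutation test of 3 against 3 cannot go below p = 0.1, so only fits over all probe sets were used.

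Of 15617 probe sets, 115 controls were left out. The platform annotation gives 10795 of the remaining 15502 a single gene symbol, 135 several and 4572 none, and 1 symbol was updated through its gene ID. Tail arrays were quantile normalized, 16 was added, and limma 3.58.1 in R 4.3.3 was run on log2 values, with genotype as the only term and a trend of the variance on the mean. P-values were adjusted by Benjamini and Hochberg over all 15502 probe sets. The difference between tissues was an interaction term over all 11 arrays, each tissue normalized on its own. Standard errors are from limma, and means and SDs are of normalized signals. The fit was tested on simulated data with 200 planted changes. It called 64% of those with a log2 size of 1, 93% of those with a log2 size of 2, and 5 unchanged probe sets. These simulated arrays had no deviations shared within pairs. Figures were drawn with matplotlib 3.10.9.

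The members of the comparison and the gene lists were chosen with earlier results of these data known. Named genes, each by its brightest probe set, are the 20 largest rises and falls among called genes with no overlap and a signal of 100 on every array of a genotype, up to 6 called genes per list and direction, or else the smallest p-values of the list, genes that the study screened or compared with an earlier data set, and markers of tail tissues. Markers tnnc1b, hbae1.1, hbbe1.1, cdh5, fli1a, ctslb and he1.1 had no probe set of their own. Alternatives were the deposited values as they are, scaling by the median, pseudocounts of 1 and 64, a filter at a signal of 100, no variance trend, unequal variances, array weights and leaving out each array. Across probe sets, tail arrays correlated at 0.945 to 0.990. Deviations from the genotype mean correlated across genotypes at 0.77 for spt array 4 and wild-type array 1, 0.48 for 5 and 2 and 0.43 for 6 and 3, each above the pairings across numbers. The labels name no pairs, so a fit with these pairs as a block was added after the data were seen, and what the paired arrays share was not tested.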

Additional observations from a re-analysis of the deposited data

Results flagged for a closer look

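The genes here have an spt effect that differed between tail and intermediate mesoderm in the limma interaction test. The difference is tail minus intermediate mesoderm on the log2 scale. It was -3.22 for slc4a1a, -2.12 for myog, -1.98 for cahz, -1.97 for neb, -1.86 for chrna1, -1.82 for aldoab, -1.71 for dmrt2a, -1.47 for xirp1 and -1.34 for klhl41b, all lower in tail, with effects between -0.42 and 0.48 in intermediate mesoderm. It was 2.57 for atp1a1a.3, 2.30 for zgc:101772, 1.68 for slc12a3 and 1.17 for tnfaip8l3, all called higher in tail. For gata1a (1.64) and cpox (2.44) both tissues were lower in spt, and intermediate mesoderm by more. In intermediate mesoderm the 3 spt signals of gata1a were 123.4 to 186.3, against 2496 and 2922 in wild type. The study had left out another wild-type array there, on which red cell markers were far lower. The widest of these differences, -5.085, was that of a probe set annotated with several embryonic alpha globins, which fell in tail and passed without any 1 of the 11 arrays (highest adjusted p = 0.0118). Its signals in intermediate mesoderm were 33.9, 108 and 44.7 in spt and 26.8 and 30.7 in wild type, while another probe set of the same globins had 299 to 461 in spt and 2418 and 3044 in wild type there (difference -1.21, adjusted p = 0.389).

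Of the 15 differences of single genes, atp1a1a.3 and cahz passed without any 1 of the 11 arrays (highest adjusted p = 0.0164 and 0.0212). The others were lost in at least 1 such fit. The highest adjusted p was 0.0505 for zgc:101772, 0.0706 for neb, 0.0726 for myog, 0.0833 for tnfaip8l3 and 0.138 for dmrt2a without spt tail array 5, 0.0786 for slc4a1a without spt tail array 4 and 0.126 for slc12a3 without wild-type tail array 2. Without spt tail array 6 it was 0.0799 for aldoab, 0.0895 for chrna1, 0.106 for cpox, 0.106 for klhl41b, 0.116 for xirp1 and 0.187 for gata1a. With an array of intermediate mesoderm left out in wild type, the remaining array was taken to vary like the other groups. When array weights were estimated per tissue, the limma adjusted p was 0.0576 for myog, 0.058 for neb and aldoab and 0.0578 for tnfaip8l3. In the same fit it was 0.0649 for klhl41b, 0.0767 for gata1a, 0.0894 for slc12a3, 0.1023 for dmrt2a and 0.1115 for xirp1. The rest of the 15 passed with these weights. Except for gata1a and cpox in wild type, signals of these 15 genes in intermediate mesoderm reached at most 201 (slc4a1a on spt array 5).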

How the results depend on the processing

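Limma called 28 probe sets higher and 79 lower in spt tail. With deposited values, median scaling, other pseudocounts, the signal filter and the fit without a variance trend, the counts were 21 to 29 and 70 to 82. A test with unequal variances per probe set called 0 in either direction (419 higher and 479 lower at an unadjusted p under 0.05). Leaving out 1 array gave 12 to 29 higher and 44 to 74 lower ones, with the fewest without spt array 5. The higher count was 18 without spt array 4, 14 without spt array 6 and 15 without wild-type array 2, and the lower count was 49 without spt array 6 and 47 without wild-type array 2. The candidate rule took 350 to 815 higher and 360 to 786 lower probe sets over the same fits, with 350 higher ones without spt array 5. The gene lists held 53 called genes, and 31 to 47 without 1 array (31 without spt array 5 or wild-type array 2, 33 without spt array 6). The value of tbx16 lay between -1.68 and -1.33. Of the 69 named and called genes, 33 passed in all 6 fits without 1 array, none changed sign under any alternative, and 8 lost their call without the variance trend, 5 with median scaling and 2 each with deposited values and a pseudocount of 64. The difference between tissues was called for 75 probe sets, 60 to 81 under the other settings, 17 to 34 without a tail array and 130 to 435 without an array of intermediate mesoderm (435 without spt replicate 4). The cause was not tested. With array weights estimated per tissue, the difference between tissues was called for 60 probe sets. Of these, 12 were also called in the tail, against 24 in the main fit. A paired fit, with arrays in the order of their numbers as a replicate block and chosen after seeing the data, called 290 probe sets higher and 285 lower, took 1007 and 957 under the candidate rule, and called 145 genes of the lists. It kept all 107 calls and all 69 named ones, and its p-values rest on pairs that the labels do not state. No interaction was fitted with pairs, since intermediate mesoderm has 3 spt and 2 wild-type arrays.

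With 3 arrays per genotype, fits without 1 array rest on fewer residual degrees of freedom. Signals under 100, such as those of slc4a1a and cahz in spt, give folds that depend on the pseudocount.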

Other observations

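Housekeeping groups had few or no called genes. Of 85 cell cycle genes 62 had positive values, with a median log2 fold change of 0.06 and none called in either fit, and the proliferation marker mki67 had 1442 ± 63.98 in spt and 1196 ± 61.4 in wild type (0.27, adjusted p = 0.711 from limma). The proteasome (48 genes, median 0.00) and mitochondrial respiration (89 genes, median -0.04) had no call without pairing, and 1 gene each in the paired fit. Genes of the p53 response and cell death had a median of -0.05 over 28 genes, and immediate-early and stress genes of 0.05 over 33, again with none called without pairing. The fibrillar collagen col1a2, at 1638 ± 65.3 in spt and 1082 ± 92.1 in wild type (0.59, adjusted p = 0.108, paired 0.0174), had the smallest p of 27 collagen and laminin genes. In the list of endoderm, yolk and hypochord only apoc1, an apolipoprotein gene, was called, at 5195, 4739 and 4554 in spt and 8795, 7836 and 8120 in wild type (-0.77, standard error 0.08, adjusted p = 0.00307), and it passed in all 6 fits without 1 array.

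Another apolipoprotein gene, apoa1a, varied widely among wild-type arrays, with 130, 284 and 1307, while spt arrays read 923, 973 and 1008. The epidermal claudin cldne was high on spt array 5 (1358, against 701 and 962) and on wild-type array 2 (968, against 367 and 393), and it was higher in spt within each pair (0.88, adjusted p = 0.627, paired 0.0126).

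Several called genes fall outside the rule for named genes and were chosen after their values were seen. Among the lower ones were filamin flncb, which crosslinks actin in muscle (-1.55, adjusted p = 0.0218), the globin-like gene cygb1 (-1.36, adjusted p = 0.00334), the tight junction scaffold tjp2b (-1.52, adjusted p = 0.0035) and the matrix gene efemp2b (-0.60, adjusted p = 0.0244). Of probe sets without a gene symbol, 14 were called lower and 2 higher, and 1 of those called lower fell by 2.73 on the log2 scale, with 165, 152 and 162 in spt and 1037, 1327 and 1105 in wild type.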
